A study of Homo sapiens with 12 samples.

Results

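Oxidative phosphorylation is carried out by 5 enzyme complexes whose subunits come from 2 genomes, and the mRNAs of those subunits were followed here across 4 groups of OE33 cells, a human esophageal adenocarcinoma line. Members were the 13 protein-coding genes of the mitochondrial chromosome and the protein-coding nuclear genes whose symbols mark them as subunits of complexes I to V, without the NDUFAF assembly factors. The symbols gave 104 genes, and 98 of them had at least 10 counts in at least 3 libraries, out of 16056 genes with that many counts and 57500 genes listed. They were 85 of 91 nuclear and 13 of 13 mitochondrial genes. By complex, 37 nuclear and 7 mitochondrial genes belonged to complex I, 4 nuclear genes to complex II, 10 nuclear and 1 mitochondrial to complex III, 15 and 3 to complex IV, and 19 and 2 to complex V. The 6 nuclear genes below the minimum, NDUFC2-KCTD14, COX4I2, COX6A2, COX7B2, COX8C and ATP5MGL, had 0 to 5 counts in every library. All 98 genes above it were also tested.

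The 4 groups had 3 libraries each, from independent biological replicates of 1 cell line. No source used here says whether the replicates of a hairpin group came from separate transductions, which limits what their n of 3 stands for. The shAPE1 group (rABS_shAPE1) was made of bile salt survivors stably carrying a short hairpin RNA against APE1, the product of APEX1, which cuts DNA at abasic sites in repair and also acts in redox control. The shCtrl group (rABS_shCtrl) was made of the same survivors stably carrying a non-targeting hairpin. The rABS group was the survivors without a hairpin, obtained after a cocktail of bile salts at 200 µM and pH 5.5 had been applied for 20 minutes a day on 15 days. The Parental group was untreated OE33. Neither a mock-exposed group nor a further APE1 hairpin was among the libraries, so culture time and exposure cannot be told apart in rABS against Parental, and transduction, vector and later culture cannot be told apart in shCtrl against rABS.

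Library totals ran from 15736087 to 23010377 counts, and the lowest correlation between replicates of a group was 0.9869. APEX1 itself was at 4.42, 4.5 and 5.88 CPM (counts scaled by library size) in shAPE1, against 62.0, 56.5 and 60.9 CPM in shCtrl. In rABS it was at 81.8, 84.5 and 79.9 CPM, against 52.9, 54.3 and 56.9 CPM in Parental. The groups did not overlap in either pair. Summed over 5 epithelial markers the level ran from 9160 to 14500 CPM over all libraries, against 0 to 0.826 CPM for 3 endothelial markers and 2.32 to 6.51 CPM for 5 leukocyte markers. The 6 fibroblast markers summed to 7.23 to 8.19 CPM in shAPE1, 9.48 to 9.97 in shCtrl, 3.49 to 4.22 in rABS and 20.9 to 27.1 in Parental, with LUM and PDGFRA at 0 counts throughout. The part of these sums in the results was not tested. In bulk RNA a lower level in fewer cells and less RNA per cell cannot be told apart.

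As background, electrons from NADH enter the respiratory chain at complex I and those from succinate at complex II, pass through complex III and cytochrome c to oxygen at complex IV, and the proton gradient that builds up drives ATP synthesis by complex V. Complex II is built from nuclear genes alone, while the other complexes each combine a few hydrophobic subunits made inside the mitochondrion with many subunits imported from the cytosol. The mitochondrial mRNAs are cut from long transcripts of the whole circle and most receive short poly(A) tails, so the balance between the genomes is set by separate machineries.

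Adjacent mitochondrial genes share bases, which limits how far their counts are separate measurements. MT-ATP8 and MT-ATP6 overlap at chrM:8527-8572 (GRCh38, plus strand) and MT-ND4L and MT-ND4 at chrM:10760-10766, and each pair is carried on 1 mRNA. The overlaps are shown 5′ to 3′ because reads in them fit either gene, and the capitals mark the start codon of the second gene.
MT-ATP8 and MT-ATP6: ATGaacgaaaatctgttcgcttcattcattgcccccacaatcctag
MT-ND4L and MT-ND4: ATGctaa

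The mitochondrial mRNAs made up 3.9, 3.1 and 4.2% of all counts in shAPE1, against 2.6, 3.28 and 2.99% in shCtrl. In rABS they made up 3.62, 2.66 and 3.4%, against 2.48, 2.73 and 1.88% in Parental. The lowest shAPE1 library lay below the highest shCtrl library, and the lowest rABS library below the highest Parental library, so the sums overlapped in both pairs. The 85 nuclear genes together held far less, 0.409 to 0.494% of the counts over the 12 libraries. The ratio of summed mitochondrial to summed nuclear counts was 9.06, 7.57 and 9.55 in shAPE1, against 5.88, 7.21 and 6.71 in shCtrl, where the groups were apart. In rABS the ratio was 7.82, 5.39 and 7.53, against 5.42, 6.16 and 3.93 in Parental, where they overlapped. Pseudogenes that carry mitochondrial sequence in the nucleus took 0.00199 to 0.00394% of counts.

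1 library in each of 3 groups stood apart in the mitochondrial sums. In shAPE1 replicate 2, rABS replicate 2 and Parental replicate 3 the summed mitochondrial share was the lowest of the group, MT-ND3 was the highest of the group, and small non-coding RNA took the largest share of counts, 1.12, 1.29 and 1.07%. Over all libraries that share was 0.621 to 1.29%. A fit that carries the share as a covariate is given with the counts it changed, and its part in the results was otherwise not tested.

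**Figure D1:**
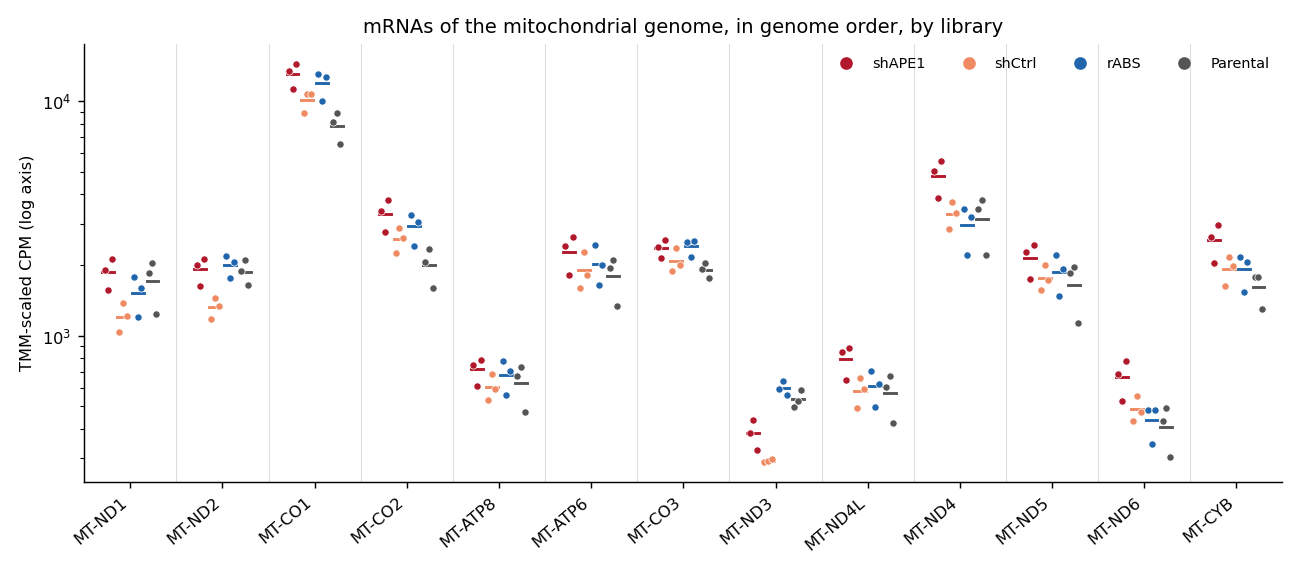
TMM-scaled CPM on a log axis of the 13 mitochondrial mRNAs, in their order along the mitochondrial genome. Each point is a library, each short line a group mean of 3, and colours give shAPE1, shCtrl, rABS and Parental from left to right within a gene. MT-CO1 was at 13400, 11300 and 14400 CPM in shAPE1 against 8870, 10700 and 10700 CPM in shCtrl, and MT-ND3 was 557 to 640 CPM in rABS and 494 to 584 CPM in Parental but 288 to 298 CPM in shCtrl.

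Per kilobase of exon, the levels of mitochondrial mRNAs were uneven. MT-CO1, the catalytic core subunit of cytochrome c oxidase, stood at 8470 CPM per kb in shAPE1, 6540 in shCtrl, 7700 in rABS and 5100 in Parental. MT-CO2, which carries the copper centre that takes electrons from cytochrome c, was at 4830, 3760, 4270 and 2920 CPM per kb in the same order. MT-ND5, a proton-pumping subunit of complex I, was at 1190, 972, 1030 and 907 CPM per kb. MT-ND6, the only mRNA of the other strand, was at 1260, 926, 830 and 777 CPM per kb. MT-ND6 is known to lack a stable poly(A) tail. With no strand setting stated for the counting, its counts and those of any transcript opposite to it cannot be told apart.

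The nuclear genes spread far wider per kilobase. COX6A1 was at 165 CPM per kb in shAPE1, 144 in shCtrl, 152 in rABS and 243 in Parental, while NDUFA4L2 was at 0.0669, 0.138, 0.114 and 0.426 CPM per kb. COX7A1, the heart and muscle form of its subunit, was at 0.413 to 0.498 CPM per kb over the 4 groups. These lengths join the exons of all annotated transcripts of a gene, so genes with long alternative exons read lower.

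Setting rABS against Parental asks how survivors of repeated exposure differ from untreated cells. Among nuclear genes, 16 of 37 in complex I rose and 2 fell, while in complexes II and IV 10 of 19 fell and 0 rose. The 3 mitochondrial genes of complex IV rose. Genes were called at a Benjamini-Hochberg adjusted p under 0.05 in the edgeR quasi-likelihood fit over 15805 genes. Of the 85 nuclear genes, 24 rose and 17 fell (median log2 change -0.02), where 29.9% of all tested genes rose and 29.9% fell (median -0.01). The complex I genes had a median of 0.26. In complex II, 3 of 4 fell (median -0.32). In complex III, 3 of 10 rose and 1 fell (median 0.00), and only 1 rose without Parental replicate 2, while 2 fell without rABS replicate 2. In complex IV, 7 of 15 fell (median -0.15). In complexes II and IV 0 nuclear genes rose at an unadjusted p under 0.05 and in each of 16 alternative fits, DESeq2 and limma-voom among them. In complex V, 5 of 19 rose and 4 fell (median 0.02), and 3 rose without rABS replicate 2 or Parental replicate 2. Over those alternative fits 13 to 18 nuclear complex I genes rose, 2 to 4 fell (4 without rABS replicate 2 or Parental replicate 2), 2 to 4 complex II genes fell and 5 to 8 nuclear complex IV genes fell.

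**Figure D2:**
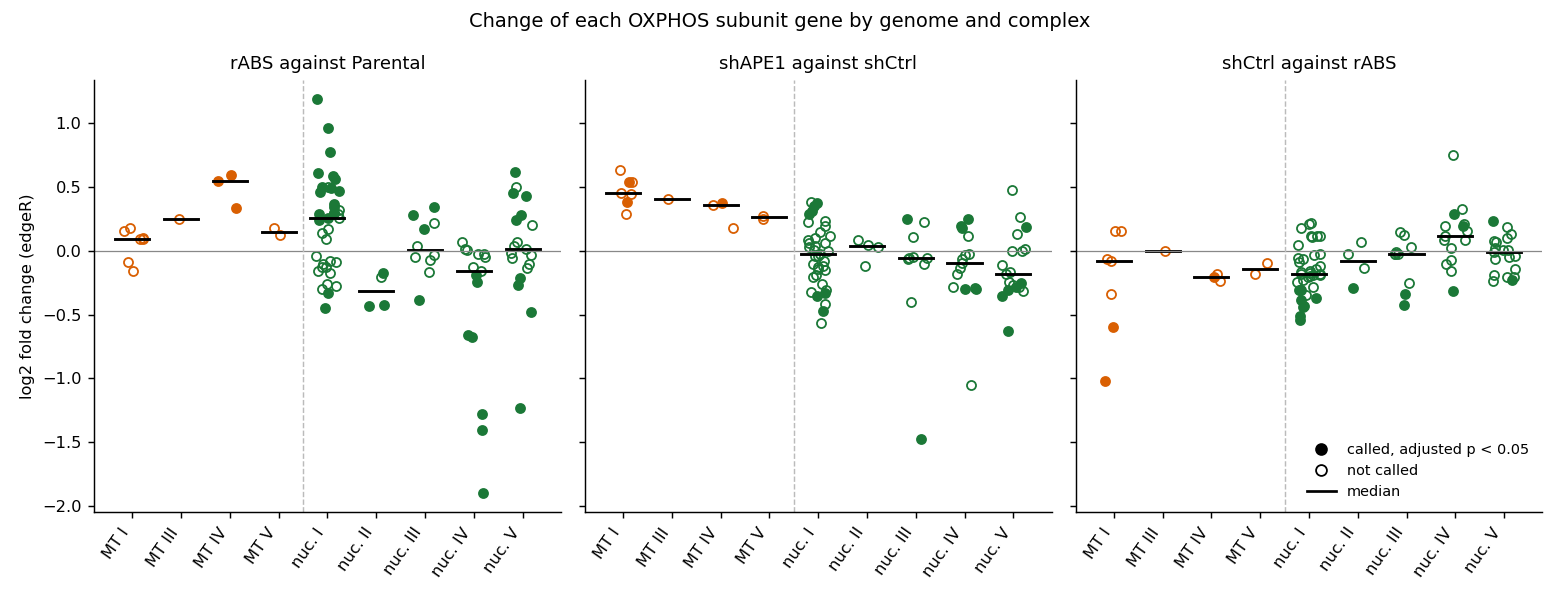
The log2 fold change (edgeR) of each subunit gene in the 3 comparisons, by genome and complex. Filled points passed the adjusted p threshold of 0.05, open points did not, and lines are medians. In rABS against Parental the nuclear complex I genes spread from -0.45 to 1.19 with a median of 0.26, while the mitochondrial complex IV genes lay at 0.33 to 0.60 and the nuclear complex IV genes at -1.90 to 0.07.

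NDUFB10 (ENSG00000140990, chr16:1959508-1961975, plus strand, GRCh38), an accessory subunit of the membrane arm of complex I, was at 93.9, 102 and 85.6 CPM in rABS, against 42.2, 38.5 and 43.2 CPM in Parental. Every rABS library was above every Parental library. The change was 2.28-fold (edgeR log2 1.19, standard error 0.09, n = 3 in each group, adjusted p = 3.28e-13), the steepest rise among the nuclear genes. NDUFA8, another accessory subunit of that arm, was at 12, 14.5 and 11.1 CPM in rABS, against 6.57, 5.75 and 7.02 CPM in Parental. It rose 1.95-fold (log2 0.96 ± 0.15, adjusted p = 9.38e-07). NDUFC2, also of the membrane arm, was at 16.2, 17.2 and 16.1 CPM in rABS, against 8.79, 8.98 and 11.1 CPM in Parental, and rose 1.71-fold (adjusted p = 9.38e-06).

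The core subunits of complex I, those conserved from bacteria, moved less uniformly. NDUFS3, a core subunit of the arm that meets ubiquinone, was at 31.9, 33.9 and 27.3 CPM in rABS, against 20.9, 17.3 and 22.9 CPM in Parental, and rose 1.53-fold (adjusted p = 1.44e-05). NDUFS8, which holds iron-sulfur clusters, rose 1.23-fold, a call lost without rABS replicate 2 (adjusted p = 0.0721) or Parental replicate 2 (0.0505). NDUFV1, which binds NADH and FMN, had a log2 change of -0.08 and was not called (adjusted p = 0.394), nor was the large iron-sulfur subunit NDUFS1 (-0.16, adjusted p = 0.0757). Of the accessory subunits, NDUFB2 rose 1.5-fold, NDUFV3 1.48-fold, NDUFS6 1.41-fold, NDUFAB1 1.4-fold and NDUFB4 1.38-fold. NDUFAB1 is the mitochondrial acyl carrier protein and serves fatty acid synthesis as well. The 2 complex I genes that fell were NDUFA10, at 55.3, 57.5 and 54.5 CPM in rABS against 79.2, 71.6 and 77.4 CPM in Parental (1.36-fold, adjusted p = 9.9e-06), and NDUFA12 (1.26-fold, adjusted p = 0.00386).

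In complex II the falls were those of SDHA, SDHD and SDHC. SDHA, the flavoprotein that oxidises succinate, was at 144, 155 and 129 CPM in rABS, against 195, 187 and 195 CPM in Parental. The groups were apart, and SDHA fell by 0.43 on the log2 scale (± 0.07, 1.35-fold, adjusted p = 3.25e-06). SDHD, a membrane anchor that also forms the ubiquinone site, was at 14.4, 16.6 and 14.9 CPM in rABS against 19.1, 21 and 21.6 CPM in Parental (1.35-fold lower, adjusted p = 0.00221). SDHC, the partner anchor, overlapped between the groups at 113, 120 and 126 CPM in rABS against 124, 146 and 136 CPM in Parental (adjusted p = 0.036). That call was lost in 6 of 16 alternative fits, with adjusted p values of 0.0608 to 0.196. SDHB, the iron-sulfur subunit, was at 31.5, 38.9 and 35 CPM in rABS against 40.2, 35.2 and 46.1 CPM in Parental and was not called (log2 -0.20, adjusted p = 0.0869). SDHA has close pseudogenes that can share reads with it.

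In complex III the paired core proteins went different ways. UQCRC1 was at 116, 128 and 116 CPM in rABS against 90.2, 91.5 and 102 CPM in Parental, and rose 1.27-fold (adjusted p = 9.5e-05). UQCRC2 was at 172, 173 and 168 CPM in rABS against 217, 221 and 231 CPM in Parental, and fell 1.31-fold (adjusted p = 6.05e-05). Neither gene overlapped between the groups. CYC1, cytochrome c1 of the electron path, overlapped (285, 303 and 262 CPM in rABS against 262, 226 and 266 CPM in Parental) with an adjusted p of 0.0443. That call was lost in 6 of 16 alternative fits, with adjusted p values of 0.051 to 0.259, the replicate block and DESeq2 among them. UQCR11, a small accessory subunit, rose 1.21-fold, and the call was lost without rABS replicate 1 (adjusted p = 0.176) or Parental replicate 2 (0.157).

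Complex IV was split by genome. MT-CO1 was at 13100, 9960 and 12600 CPM in rABS, against 8120, 8890 and 6560 CPM in Parental. It rose 1.51-fold (log2 0.60 ± 0.14, adjusted p = 0.00204) with no overlap. MT-CO3, the third large membrane subunit, was at 2510, 2160 and 2530 CPM in rABS against 1920, 2030 and 1760 CPM in Parental (1.26-fold, adjusted p = 0.000605). MT-CO2 was at 3270, 2420 and 3060 CPM in rABS, against 2060, 2340 and 1590 CPM in Parental (1.46-fold, adjusted p = 0.0282). The call of MT-CO2 was lost without rABS replicate 1 (adjusted p = 0.0664), without rABS replicate 3 (0.0779) and with no filter on low counts (0.0731). In the edgeR fit of all 12 libraries none of the other 10 mitochondrial genes was called in rABS against Parental, nor had any an unadjusted p under 0.05. MT-ND3 was called as a rise without rABS replicate 3 (adjusted p = 0.0448) or Parental replicate 3 (0.0253), and MT-ND2 with the small RNA share as a covariate (0.0325). Their log2 changes ran from -0.16 for MT-ND1 to 0.25 for MT-CYB.

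Among the nuclear complex IV genes the steepest fall at a moderate level was that of COX7A2L (ENSG00000115944, chr2:42333546-42425088, minus strand). It encodes SCAF1, a COX7A-related protein that joins complexes III and IV in supercomplexes. COX7A2L was at 31.5, 27.2 and 28 CPM in rABS, against 68.3, 70.0 and 72.8 CPM in Parental, and fell by 1.28 on the log2 scale (± 0.09, 2.44-fold, adjusted p = 1.79e-13). COX6A1, an accessory subunit near the dimer interface, was at 209, 198 and 206 CPM in rABS against 326, 315 and 338 CPM in Parental (1.6-fold lower, adjusted p = 6.68e-11). COX5B, which binds zinc, was at 54.2, 57.2 and 46.1 CPM in rABS against 80.9, 75.5 and 92.3 CPM in Parental (1.58-fold lower, adjusted p = 1.14e-07). All 3 genes had every rABS library below every Parental library. COX7A2 and COX5A fell less, 1.19-fold (adjusted p = 0.0168) and 1.14-fold (adjusted p = 0.0283). The COX7A2 call was lost without rABS replicate 1 (0.0819) or 3 (0.0572) or Parental replicate 3 (0.119). The COX5A call was lost in 6 of 16 alternative fits, with adjusted p values of 0.0524 to 0.155. COX6B2, the testis form of its subunit, and NDUFA4L2, a paralog of NDUFA4 induced by hypoxia, fell 2.65-fold and 3.73-fold at levels of at most 2.89 and 1.47 CPM in any library. The nuclear complex IV genes summed to 786.5, 810.1 and 738.9 CPM in rABS, against 1015.7, 958.7 and 1053.7 CPM in Parental. The mitochondrial ones summed to 18837, 14538 and 18196 CPM in rABS, against 12105, 13259 and 9911 CPM in Parental. The groups were apart in both sums, in opposite directions.

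**Figure D3:**
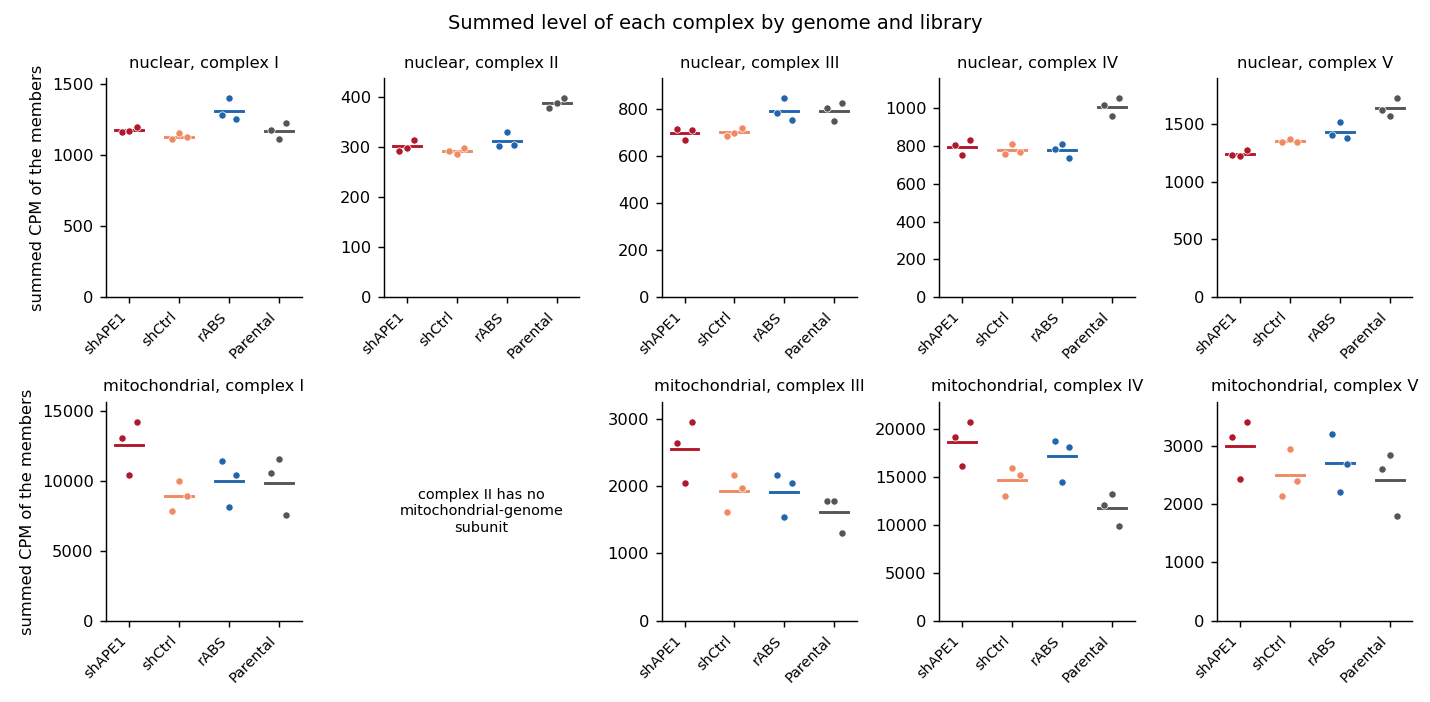
Summed TMM-scaled CPM of the subunit genes of each complex, nuclear genes above and mitochondrial genes below. Each point is a library and each line a mean of 3, and axes start at 0. For complex IV the nuclear sum was 738.9 to 810.1 CPM in rABS against 958.7 to 1053.7 CPM in Parental, while the mitochondrial sum was 14538 to 18837 CPM in rABS against 9911 to 13259 CPM in Parental.

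In complex V the catalytic head, its stalk and the membrane ring each changed in part. ATP5F1B, the catalytic beta subunit, was at 451, 507 and 461 CPM in rABS against 547, 552 and 607 CPM in Parental, and fell 1.2-fold (adjusted p = 0.000681). ATP5F1C, the rotating gamma subunit, was at 77.2, 80.2 and 78.4 CPM in rABS against 107, 113 and 108 CPM in Parental (1.39-fold lower, adjusted p = 1.28e-06). ATP5PO, the stalk protein OSCP, and ATP5PF, coupling factor F6, rose 1.35-fold and 1.37-fold. ATP5F1A, the alpha subunit, was not called (log2 -0.02, adjusted p = 0.854). ATP5IF1, the inhibitor of the enzyme, was at 22.0, 23.2 and 20.5 CPM in rABS against 21.0, 16.2 and 20.2 CPM in Parental and was not called (adjusted p = 0.132).

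The c subunit of the membrane ring is encoded by 3 nuclear genes that differ in their import signals and give the same mature protein. ATP5MC2 (chr12:53632726-53677408, minus strand) was at 97.0, 95.2 and 92.9 CPM in rABS, against 218, 212 and 238 CPM in Parental. It fell by 1.23 on the log2 scale (± 0.08, 2.35-fold, adjusted p = 2.42e-15). ATP5MC1 (chr17:48892765-48895871, plus strand) was at 62.6, 58.1 and 62.1 CPM in rABS, against 41.1, 35.8 and 42.4 CPM in Parental. It rose by 0.62 on the log2 scale (± 0.09, 1.53-fold, adjusted p = 3.01e-07). Neither of these genes overlapped between the groups. ATP5MC3 (chr2:175176258-175184607, minus strand) overlapped between them, at 46.7, 59.6 and 43.0 CPM in rABS against 43.9, 37.0 and 45.7 CPM in Parental (adjusted p = 0.0412). That call was lost in 6 of 16 alternative fits, DESeq2 (0.0528) and the replicate block (0.0596) among them, and most of all without rABS replicate 2 (log2 0.09, adjusted p = 0.456) or Parental replicate 2 (0.15, adjusted p = 0.237). Per kilobase, ATP5MC2 was at 23.8 CPM per kb in rABS and 55.8 in Parental, ATP5MC1 at 23.3 and 15.2, and ATP5MC3 at 7.34 and 6.22. In Parental ATP5MC2 was thus the highest of the 3 per kilobase, and in rABS it was level with ATP5MC1.

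The windows ahead of ATP5MC1 and ATP5MC2 are printed because these genes encode 1 mature protein and changed in opposite directions, and those of NDUFB10 and COX7A2L because they were the steepest rise and the steepest fall among nuclear genes above 5 CPM. Each is the 250 bases before the gene's start in RefSeq (GRCh38.p14), 5′ to 3′ on the gene's strand, at chr17:48892537-48892786 (plus), chr12:53676084-53676333 (minus), chr16:1959288-1959537 (plus) and chr2:42361218-42361467 (minus). Capitals mark a match to the core of the NRF1 site, GCGCATGC, on either strand.
ATP5MC1: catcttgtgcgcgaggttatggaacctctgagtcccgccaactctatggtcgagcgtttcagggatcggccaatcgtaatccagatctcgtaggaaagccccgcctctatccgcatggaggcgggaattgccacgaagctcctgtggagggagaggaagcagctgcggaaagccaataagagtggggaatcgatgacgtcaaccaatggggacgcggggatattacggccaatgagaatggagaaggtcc
ATP5MC2: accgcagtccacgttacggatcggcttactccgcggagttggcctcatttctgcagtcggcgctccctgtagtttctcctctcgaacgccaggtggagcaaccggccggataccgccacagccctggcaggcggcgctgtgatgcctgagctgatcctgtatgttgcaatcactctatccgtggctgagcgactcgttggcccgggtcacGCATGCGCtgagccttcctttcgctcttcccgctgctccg
NDUFB10: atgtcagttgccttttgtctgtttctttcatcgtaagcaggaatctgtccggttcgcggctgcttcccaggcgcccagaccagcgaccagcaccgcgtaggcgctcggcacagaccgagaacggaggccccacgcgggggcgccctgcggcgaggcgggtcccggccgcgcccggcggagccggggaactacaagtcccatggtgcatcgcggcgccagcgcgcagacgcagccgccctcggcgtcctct
COX7A2L: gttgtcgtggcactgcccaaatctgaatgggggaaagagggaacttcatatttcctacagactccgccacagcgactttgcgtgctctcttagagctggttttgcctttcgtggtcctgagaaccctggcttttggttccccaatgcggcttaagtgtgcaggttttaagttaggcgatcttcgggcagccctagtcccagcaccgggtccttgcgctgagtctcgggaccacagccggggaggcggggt

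Only the ATP5MC2 window of these 4 held a match to any of the 3 motifs searched, on the strand opposite to the gene. The motifs were GCGCATGC for NRF1, CCGGAAG for the ETS family with GABPA, and AAGATGG for YY1, which are known to bind promoters of respiratory genes, each read on both strands over 300 bases from 250 before to 50 after the start. A promoter could hold more than 1 of them, and CCGGAAG and AAGATGG could share the letters AAG. RefSeq windows were matched for 67 of the 85 nuclear genes, and 18 had no entry. GCGCATGC was in 13 of them (19.4%), against 5.2% of 10167 other tested genes with a window and 3.27% of all 27305 windows. CCGGAAG was in 29.9%, against 19.0% and 10.7%. AAGATGG was in 23.9%, against 7.34% and 6.06%. Of the matched genes called in rABS against Parental, GCGCATGC was in 5 of 18 that rose, 5 of 14 that fell and 3 of 35 that were not called. CCGGAAG was in 3, 4 and 13 of the same sets, and AAGATGG in 4, 2 and 10, so neither was more frequent among the called genes of this comparison. In shAPE1 against shCtrl GCGCATGC was in 2 of 7 that rose, 2 of 9 that fell and 9 of 51 not called. In shCtrl against rABS it was in 1 of 2, 3 of 8 and 9 of 57. These counts are small and their differences were not tested. These matches describe letters in a window and not bound sites.

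**Figure D4:**
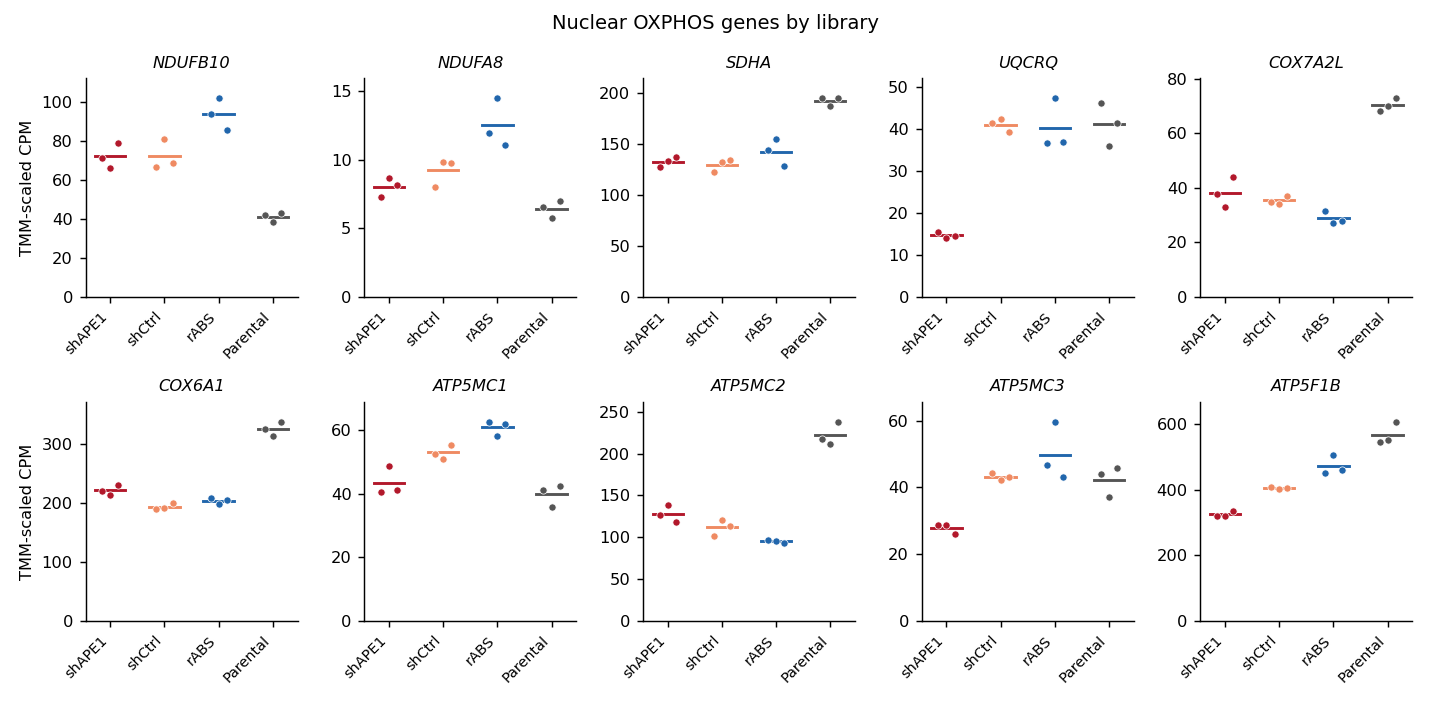
TMM-scaled CPM of 10 nuclear subunit genes by library, in the order shAPE1, shCtrl, rABS and Parental. Each point is a library, each line a mean of 3, and axes start at 0. UQCRQ was at 14.0 to 15.4 CPM in shAPE1 against 39.2 to 42.3 CPM in shCtrl, and ATP5MC1 and ATP5MC2 differed in opposite directions between rABS and Parental.

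By chromosome, 5 of the 6 nuclear members on chromosome 12 fell in rABS against Parental: ATP5MC2, NDUFA4L2, COX6A1, NDUFA12 and ATP5F1B. The sixth, NDUFA9, was at 33.0, 36 and 35 CPM in rABS against 33.2, 35.8 and 37.9 CPM in Parental. The median log2 change was -0.50 on chromosome 12 and 0.02 over the 79 nuclear members elsewhere, of which 24 rose and 12 fell. All 3 members on chromosome 21, ATP5PF, ATP5PO and NDUFV3, rose (median 0.45). Over all tested genes 29.9% rose and 29.9% fell. These chromosomes were singled out after their values were seen, and copy number was not measured. The other genes on them were not counted here, so the changes cannot be taken as particular to the members.

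Setting shAPE1 against shCtrl asks how survivors with the APE1 hairpin differ from those with the non-targeting hairpin. With no further APE1 hairpin, the loss of APE1 and other effects of that hairpin cannot be told apart. All 13 mitochondrial mRNAs had a fitted change above 0 in shAPE1, in each of 16 alternative fits as well, and 3 of them passed the test. These mRNAs are cut from shared transcripts, and all but MT-ND3 were the lowest of their group in shAPE1 replicate 2. They are therefore not 13 separate measurements, and the alternative fits reuse the same libraries. Their summed share of counts overlapped between the groups. The nuclear genes went both ways, with 1 steep fall, that of UQCRQ. The 13 mitochondrial changes ran from 0.18 to 0.63 on the log2 scale (median 0.38), with 3 rises and 0 falls, where 17.8% of all tested genes rose and 18.8% fell (median -0.02). At an unadjusted p under 0.05, 5 rose and 0 fell, and 0 fell in any alternative fit. The number that rose was 9 with limma-voom, 11 in a fit of the 6 libraries alone and 9 with the small RNA share as a covariate. Of the 85 nuclear genes, 9 rose and 11 fell (median -0.06), with upper-quartile scaling 12 rose and 7 fell, with RLE scaling 10 and 9, and without shAPE1 replicate 3 the rises numbered 5. Complex I had 4 rises (2 without shAPE1 replicate 3) and 3 falls (1 with upper-quartile scaling) among 37, complex II 0 of either among 4 (also at an unadjusted p under 0.05), and complex III 1 of each among 10. Complex IV had 3 rises (1 without shAPE1 replicate 3 or any 1 of the shCtrl libraries) and 2 falls (1 without shAPE1 or shCtrl replicate 2) among 15. Complex V had 1 rise (0 without shAPE1 replicate 2 or shCtrl replicate 1 or 3, and 2 without shCtrl replicate 2) and 5 falls (3 without shAPE1 replicate 1) among 19.

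MT-ND2, a proton-pumping subunit of complex I, was at 2000, 1630 and 2120 CPM in shAPE1, against 1180, 1440 and 1340 CPM in shCtrl. It rose 1.45-fold (log2 0.54 ± 0.10, adjusted p = 0.000239) with no overlap. MT-ND3, a small subunit at the joint of the complex I arms, was at 385, 437 and 325 CPM in shAPE1, against 288, 293 and 298 CPM in shCtrl (1.3-fold higher, adjusted p = 0.000308). MT-CO1 was 1.29-fold higher with an adjusted p of 0.0485, a call that was lost without shAPE1 replicate 1 (0.0964) or 3 (0.126), without shCtrl replicate 1 (0.134) or 2 (0.0657), and with no filter on low counts (0.196). MT-ND1 had the largest fitted change, log2 0.63, with 1910, 1570 and 2120 CPM in shAPE1 against 1030, 1370 and 1210 CPM in shCtrl, and was not called (adjusted p = 0.0569). MT-ND4 was at 5020, 3860 and 5540 CPM in shAPE1 against 2850, 3710 and 3330 CPM in shCtrl, apart in every library and not called (adjusted p = 0.135). MT-ND6, on the other strand, was at 682, 524 and 781 CPM in shAPE1 against 432, 554 and 472 CPM in shCtrl, which overlapped (adjusted p = 0.168). MT-CYB, cytochrome b of complex III, was at 2640, 2040 and 2950 CPM in shAPE1 against 1620, 2170 and 1970 CPM in shCtrl and also overlapped (adjusted p = 0.162).

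UQCRQ (ENSG00000164405, chr5:132866560-132868031, plus strand), a small subunit of complex III also named ubiquinone-binding protein QP-C, was at 15.4, 14.0 and 14.6 CPM in shAPE1, against 41.3, 42.3 and 39.2 CPM in shCtrl. The highest shAPE1 library was far below the lowest shCtrl library. UQCRQ fell by 1.48 on the log2 scale (± 0.11, 2.78-fold, adjusted p = 1.63e-12). In rABS it was at 36.5, 47.2 and 36.7 CPM, against 46.0, 35.8 and 41.4 CPM in Parental, and was not called there (adjusted p = 0.819). Of the other subunits of complex III, UQCRC1 rose 1.19-fold in shAPE1 (adjusted p = 0.00509), and UQCRC2, UQCRFS1, UQCRH, UQCRB and UQCR10 had log2 changes of -0.06, -0.05, -0.10, -0.07 and -0.06 and were not called.

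In complex V, 5 of 19 nuclear genes fell and 1 rose in shAPE1, where 18.8% of all tested genes fell and 17.8% rose. Over the alternative fits 3 to 6 fell and 0 to 2 rose, so this gap is not read as a result about the complex. ATP5MC3 was at 28.7, 28.7 and 26.1 CPM in shAPE1, against 44.2, 42.2 and 43.0 CPM in shCtrl. It fell by 0.63 on the log2 scale (± 0.10, 1.55-fold, adjusted p = 1.04e-05). ATP5F1B was at 321, 321 and 334 CPM in shAPE1 against 407, 401 and 404 CPM in shCtrl, and fell 1.24-fold (adjusted p = 0.00027). Neither gene overlapped between the groups, and both calls were kept in all 16 alternative fits. ATP5MC1 fell 1.22-fold (adjusted p = 0.0102) with 40.7, 48.8 and 41.1 CPM in shAPE1 against 52.5, 51.0 and 55.5 CPM in shCtrl. ATP5MC2 went the other way, 1.14-fold higher with overlapping groups at 126, 139 and 118 CPM in shAPE1 against 101, 121 and 113 CPM in shCtrl (adjusted p = 0.0458). ATP5PD and ATP5PF, of the peripheral stalk, fell 1.19-fold and 1.28-fold. The ATP5MC2 and ATP5PF calls were each lost in 7 of 16 alternative fits, and the ATP5MC1 and ATP5PD calls in 3. With DESeq2 the adjusted p of ATP5PF was 0.068. The nuclear complex V genes summed to 1229.1, 1219.6 and 1277.5 CPM in shAPE1, against 1339.2, 1366.9 and 1341.9 CPM in shCtrl, with no overlap.

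Among the nuclear genes of complexes I and IV the called changes in shAPE1 went both ways and were at most 1.39-fold. NDUFAB1 was at 26.6, 27.7 and 31.4 CPM in shAPE1 against 41.3, 38.3 and 39.3 CPM in shCtrl, and fell 1.39-fold (adjusted p = 0.000291). NDUFV1 was at 118, 131 and 120 CPM in shAPE1 against 90.8, 100 and 97.5 CPM in shCtrl, and rose 1.28-fold (adjusted p = 0.000388). NDUFB11, a membrane-arm subunit, was at 74.3, 93.6 and 71.8 CPM in shAPE1 against 55.8, 66.0 and 62.5 CPM in shCtrl, and rose 1.3-fold (adjusted p = 0.000727). COX8A, a small accessory subunit of complex IV, was at 64.7, 62.0 and 63.3 CPM in shAPE1 against 74.9, 85.1 and 73.9 CPM in shCtrl, and fell 1.23-fold (adjusted p = 0.00433). COX7C fell 1.23-fold, while COX5A and COX6A1 rose 1.19-fold and 1.14-fold. NDUFB10, the steepest rise in rABS against Parental, was at 71.2, 66.4 and 79.1 CPM in shAPE1 against 66.9, 81.2 and 68.8 CPM in shCtrl (log2 0.00, adjusted p = 0.98). Of the calls in shAPE1 against shCtrl, those kept in all 16 alternative fits were the rises of NDUFB11, NDUFV1 and UQCRC1, the falls of ATP5F1B, ATP5MC3, COX8A, NDUFAB1 and UQCRQ, and the rises of MT-ND2 and MT-ND3. Of these rises, all but that of NDUFV1 were in genes that also fell in shCtrl against rABS. NDUFB11 averaged 79.89 CPM in shAPE1, 61.42 in shCtrl and 80.28 in rABS. UQCRC1 averaged 112.6, 94.68 and 120 CPM in the same order. In Parental NDUFB11 averaged 67.2 CPM and UQCRC1 94.65 CPM. For both genes shCtrl overlapped with Parental, and every shCtrl library was below every shAPE1 and rABS library.

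The 3′ untranslated regions of the members were read for 3 overlapping 7-mers on the transcribed strand, namely TGCATTC with its 3′ neighbour GCATTCT and its 5′ neighbour CTGCATT. These had been picked in an earlier search for 7-mers whose carriers were lower in shAPE1, over these same libraries, and so support nothing here. A match was in 18 of 85 nuclear members (21.2%), against 29.1% of 12471 tested genes with a region of at least 50 bases. Among the 18, 2 rose and 3 fell in shAPE1 (median log2 change -0.07), and among the other 67, 7 rose and 8 fell (median -0.06). Over all tested genes 528 of 3628 with a match rose and 1329 fell (median -0.16), and 2138 of 8843 without one rose and 1402 fell (median 0.04). The 3 that fell were UQCRQ, ATP5MC3 and COX8A. Their sites are shown with 29 bases each because they include the steepest falls, at chr5:132867630-132867658 (plus), chr2:175178073-175178101 (minus) and chr11:63976375-63976403 (plus), GRCh38, with the 7-mer in capitals.
UQCRQ: ggaagaggagtCTGCATTgtagtgtctca
ATP5MC3: aaagaagaacgTGCATTCaggcagatgct
COX8A: tggtcatgttaCTGCATTtgtggccggcc

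Setting shCtrl against rABS shows how the hairpin controls differed from the survivors they came from, and it shares libraries with both comparisons above. In complex I, 7 of 37 nuclear and 2 of 7 mitochondrial genes fell and 0 rose. Of the 85 nuclear genes, 3 rose and 12 fell (median log2 change -0.05), where 17.9% of all tested genes rose and 18.6% fell (median 0.02). The share of nuclear complex I genes that fell was thus near that of all tested genes. The lack of rises was not particular to them, as 0 nuclear genes of complexes II and III rose, and 0 complex I assembly factors. In complex I the rises were also 0 at an unadjusted p under 0.05 and in each of 16 alternative fits, for both genomes. Complex II had 1 fall, complex III 2 falls, complex IV 2 rises and 1 fall, and complex V 1 of each. Over the alternative fits complex II had 0 to 2 falls, complex IV 0 to 2 rises and 0 to 1 falls, and complex V 0 to 1 rises and 0 to 3 falls. Without rABS replicate 2 the nuclear falls numbered 7, with 0 in complexes II, IV and V, without rABS or shCtrl replicate 3 the nuclear rises numbered 0, and without shCtrl replicate 2 they numbered 1. Of the 13 mitochondrial genes, 3 fell and 0 rose, the same counts as at an unadjusted p under 0.05, and 0 rose in any alternative fit.

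MT-ND3 was at 288, 293 and 298 CPM in shCtrl, against 591, 640 and 557 CPM in rABS, the steepest change of any mitochondrial gene in the 3 comparisons. It fell by 1.02 on the log2 scale (± 0.08, 2.03-fold, adjusted p = 1.58e-11). As a share of the mitochondrial mRNA counts it made up 1.01, 1.41 and 0.786% in shAPE1, 1.17, 0.942 and 1.04% in shCtrl, 1.66, 2.42 and 1.67% in rABS and 1.83, 1.78 and 2.85% in Parental, so both hairpin groups were below both groups without a hairpin. MT-ND2 was at 1180, 1440 and 1340 CPM in shCtrl against 2180, 1760 and 2060 CPM in rABS, and fell 1.51-fold (adjusted p = 9.14e-05). The shAPE1 libraries, at 1630 to 2120 CPM of MT-ND2, overlapped with rABS, while at 325 to 437 CPM of MT-ND3 they lay between shCtrl and rABS. MT-CO3 overlapped between shCtrl and rABS (adjusted p = 0.0464), and the call was lost without shCtrl replicate 1 (0.238) or 3 (0.179), without rABS replicate 1 (0.164) or 3 (0.157), and with upper-quartile scaling (0.0831).

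The steepest nuclear falls in shCtrl were those of NDUFS3 and NDUFB9. NDUFS3 was at 21.8, 21 and 21.2 CPM in shCtrl against 31.9, 33.9 and 27.3 CPM in rABS (1.45-fold lower, adjusted p = 0.000182). NDUFB9, a membrane-arm subunit, was at 99.9, 93.6 and 99.8 CPM in shCtrl against 143, 144 and 131 CPM in rABS (1.43-fold lower, adjusted p = 2.08e-06). NDUFB10 was at 66.9, 81.2 and 68.8 CPM in shCtrl against 93.9, 102 and 85.6 CPM in rABS (1.3-fold lower, adjusted p = 0.0008). CYC1 was at 199, 206 and 229 CPM in shCtrl against 285, 303 and 262 CPM in rABS (1.34-fold lower, adjusted p = 3.45e-05). UQCRC1 was at 94.7, 93.4 and 96 CPM in shCtrl against 116, 128 and 116 CPM in rABS (1.27-fold lower, adjusted p = 0.000246). None of these 5 genes overlapped between the groups. NDUFB11 and NDUFA6 fell 1.31-fold and 1.36-fold. The 3 rises, COX7A2L, ATP5MC2 and NDUFA4, were 1.22-fold, 1.18-fold and 1.14-fold, and none was kept in all alternative fits. COX7A2L was at 34.8, 34.2 and 37.1 CPM in shCtrl against 31.5, 27.2 and 28 CPM in rABS, still below the 68.3 CPM of the lowest Parental library.

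For subunits with tissue forms, the mRNA of the general form was the higher one in all 4 groups. Per kilobase, COX6B1 was at 79.4 CPM per kb in shAPE1, 84.9 in shCtrl, 94.9 in rABS and 96.5 in Parental, while COX6B2 was at 0.363, 0.439, 0.264 and 0.705. COX7A2 was at 21.8, 24, 22.6 and 26.8 CPM per kb in the same order, COX7A1 at 0.485, 0.498, 0.413 and 0.44, and COX7A2L at 6.82, 6.31, 5.16 and 12.6. NDUFA4, once counted in complex I and now placed in complex IV, was at 31.3, 27.6, 24.1 and 26.8 CPM per kb. COX4I1, the general form of the largest nuclear subunit, was at 8.33, 8.69, 10.9 and 10.4 CPM per kb, and COX4I2, its lung and hypoxia form, had at most 1 count in any library. COX6A2, the muscle form, had 0 counts in every library, and COX8C at most 3.

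The machinery around the complexes was read from lists of other mitochondrial genes, in the same fits. In rABS against Parental, genes that make mitochondrial RNA and protein rose in most cases: 20 of 30 transcription and RNA processing genes rose and 1 fell (median log2 change 0.53), and 45 of 78 mitochondrial ribosomal protein genes rose and 6 fell (median 0.41). Among complex I assembly factors 11 of 18 rose and 1 fell (median 0.54), and of 36 for the other complexes 18 rose and 5 fell (median 0.31). Of 27 import genes 16 rose and 5 fell (median 0.55). Translation factors had 9 rises (5 without Parental replicate 2) and 4 falls among 17, mitochondrial DNA replication genes 6 of each among 15, mobile carriers and adenine nucleotide transport 5 and 4 among 11, regulators of biogenesis 7 and 5 among 18, and tricarboxylic acid cycle and pyruvate entry genes 5 rises and 9 falls among 27 (median -0.12). All these stand against the 29.9% of all tested genes that rose and the 29.9% that fell.

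**Figure D5:**
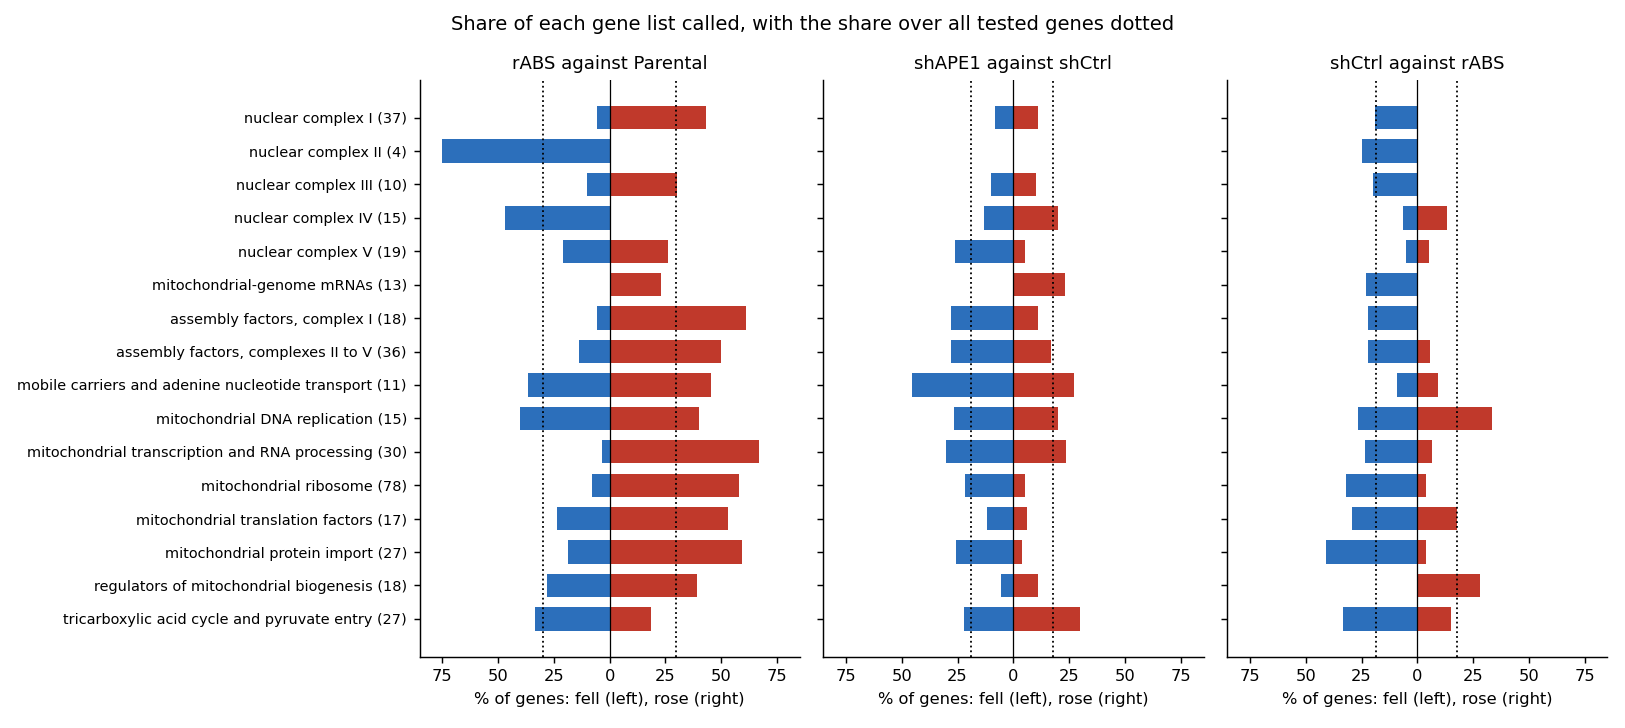
Percent of the genes in each list that fell (bars to the left) or rose (bars to the right) at an adjusted p under 0.05 in each comparison, with the number of tested genes in brackets and the shares over all tested genes dotted. In rABS against Parental 20 of 30 transcription and RNA processing genes and 45 of 78 mitochondrial ribosome genes rose, where 29.9% of all tested genes did.

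The genes named from these lists are among the 3 of each with the smallest adjusted p. TOMM40, the import channel of the outer membrane, averaged 223.9 ± 18.6 CPM in rABS and 63.39 ± 0.665 CPM in Parental (SD, n = 3 each), a 3.53-fold rise (edgeR adjusted p = 3.18e-19). NDUFAF3, an early complex I assembly factor, averaged 54.76 ± 1.40 CPM in rABS and 22.83 ± 2.33 CPM in Parental (2.41-fold, adjusted p = 2.82e-13). ACAD9 and FOXRED1, which also assemble complex I, rose 2.07-fold and 1.91-fold. COX19, which serves copper delivery to complex IV, averaged 14.08 ± 0.821 CPM in rABS and 42.92 ± 1.05 CPM in Parental, a 3.05-fold fall, while COA3, which binds newly made MT-CO1, rose 1.97-fold. MRPL17 and MRPS7 of the mitochondrial ribosome rose 2.79-fold and 1.9-fold, and MRPS10 fell 2.71-fold. TFAM, which packages and transcribes mitochondrial DNA, rose 1.71-fold. PDK4, a kinase that shuts pyruvate dehydrogenase, averaged 3.548 ± 0.561 CPM in rABS and 42.16 ± 1.23 CPM in Parental, an 11.8-fold fall (adjusted p = 2.11e-21). SLC25A6 and SLC25A5, adenine nucleotide carriers, fell 1.98-fold and 1.46-fold, and CYCS, cytochrome c, rose 1.67-fold. Of the regulators of biogenesis, PPRC1, PRKAA2 and PPARGC1A rose, and these calls were kept in all 16 alternative fits. The log2 changes in that list ran from -0.65 to 4.81.

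In shAPE1 against shCtrl the lists held fewer rises than falls, apart from regulators of biogenesis (2 and 1 of 18) and the tricarboxylic acid cycle (8 and 6 of 27, with 5 rises without shAPE1 replicate 2). Over all tested genes 2808 rose and 2976 fell, and with upper-quartile scaling 3215 rose and 2634 fell. A gap of a few genes in a list is therefore not read as a result about that list. Of 78 mitochondrial ribosome genes 4 rose and 17 fell (9 fell without shAPE1 replicate 2), against 17.8% and 18.8% of all tested genes. Of 27 import genes 1 rose and 7 fell, with 4 falls without shAPE1 replicate 2 or shCtrl replicate 1 or 3. Complex I assembly factors had 2 rises and 5 falls among 18 (2 falls without shAPE1 replicate 2, 1 without shCtrl replicate 1), other assembly factors 6 and 10 among 36, carriers 3 and 5 among 11, replication genes 3 and 4 among 15, transcription and RNA processing genes 7 and 9 among 30 (4 rises without shAPE1 replicate 3 or shCtrl replicate 2 or 3) and translation factors 1 and 2 among 17. PPARGC1A, the coactivator PGC-1alpha, averaged 19.32 ± 0.273 CPM in shAPE1 and 7.115 ± 0.526 CPM in shCtrl (SD, n = 3 each), a 2.72-fold rise (edgeR adjusted p = 2.4e-10). CS, citrate synthase, averaged 436.9 ± 33.8 CPM in shAPE1 and 296.1 ± 10.5 CPM in shCtrl (1.48-fold, adjusted p = 2.88e-08), and PC, pyruvate carboxylase, rose 2.12-fold. LRPPRC, which stabilises mitochondrial mRNAs, averaged 288.8 ± 7.19 CPM in shAPE1 and 206.8 ± 13.9 CPM in shCtrl (1.4-fold, adjusted p = 1.49e-06). PDE12, which removes poly(A) tails from mitochondrial RNA, fell 1.66-fold, and RNASEH1, which removes RNA primers from mitochondrial DNA, fell 1.8-fold. MRPS35, MRPL16 and MRPL42 fell 2.1-fold, 1.8-fold and 1.73-fold. SLC25A5 fell 1.51-fold while SLC25A6 rose 1.46-fold.

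In shCtrl against rABS, 1 of 27 import genes rose and 11 fell (7 without rABS replicate 2), and 3 of 78 mitochondrial ribosome genes rose and 25 fell, where 17.9% of all tested genes rose and 18.6% fell. Complex I assembly factors had 0 rises and 4 falls among 18 (0 rises and 6 falls at an unadjusted p under 0.05), other assembly factors 2 and 8 among 36 (4 falls without rABS or shCtrl replicate 2), transcription and RNA processing genes 2 and 7 among 30, translation factors 3 and 5 among 17, the tricarboxylic acid cycle 4 and 9 among 27 (4 falls without rABS replicate 2), replication genes 5 and 4 among 15 (3 rises without rABS replicate 3), carriers 1 and 1 among 11, and regulators of biogenesis 5 and 0 among 18 (3 rises without rABS replicate 2 or 3, and 0 falls also at an unadjusted p under 0.05 and in each alternative fit). TOMM40 averaged 141.4 ± 1.81 CPM in shCtrl and 223.9 ± 18.6 CPM in rABS (1.58-fold lower, edgeR adjusted p = 2.34e-08). NDUFAF3, ACAD9 and FOXRED1 fell 1.38-fold, 1.34-fold and 1.41-fold. PDK4 averaged 11.63 ± 0.228 CPM in shCtrl and 3.548 ± 0.561 CPM in rABS, a 3.26-fold rise (adjusted p = 1.15e-11), and was still below its Parental level of 42.16 ± 1.23 CPM.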

How the data were processed

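RNA was sequenced after poly(A) selection from 12 OE33 libraries, 3 in each of 4 groups. The deposited values are raw counts of reads per Ensembl gene, made by the authors with Trimmomatic 0.36, STAR 2.5.2b on GRCh38 and featureCounts of Subread 1.5.2, per the submitters' processing notes. The sources used here give no annotation release, strand setting or rule for multi-mapping reads, so members with processed pseudogenes (UQCRH with its retrocopy UQCRHL among them) and the readthrough ATP5MF-PTCD1 may share reads. Positions and exon lengths came from GENCODE 29. MT-RNR1, MT-RNR2 and FASTKD4 were not analysed here.

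Genes were kept with filterByExpr (minimum count 10, total 15), which left 15805. Libraries were scaled by TMM, and 1 robust quasi-likelihood model of all 12, with 4 group terms, was fitted (edgeR 4.0.16, limma 3.58.1, R 4.3.3), with Benjamini-Hochberg adjustment over all genes. The procedure was tested on simulated data. CPM are TMM-scaled, sums included, except the sums of cell type markers, which are scaled by library total alone. Totals of 15736087 counts or more make 1 count worth well under 1 CPM, and members under 3 CPM are imprecise.

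Alternatives were RLE and upper-quartile scaling, scaling without mitochondrial genes, other filters, DESeq2 1.42.0, limma-voom, the 6 libraries of a comparison alone, a replicate block and leaving out each library, with the small non-coding RNA share as a covariate added after the data were seen. Members and lists were chosen with earlier results of these data known. Named genes were all mitochondrial genes, complex II, the isoform sets, ATP5IF1, CYC1, APEX1, the 5 largest called rises and falls without overlap, the largest change in each complex and up to 3 genes per list by adjusted p. Other called members were named after their values were seen. Not every member, nor every gene that the rule names, is given in the text.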

Additional observations from a re-analysis of the deposited data

How the results depend on the processing

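The 16 alternative fits of each comparison gave 4651 recomputed gene values. None of the called genes reversed; 113 values had the opposite sign in genes called in neither fit. Calls were lost in 153 values, 111 of them on leaving out a library, and gained in 73. In shAPE1 against shCtrl the mitochondrial rises, 3 as reported, numbered 5 with upper-quartile scaling, 9 with limma-voom, 11 in the 6 libraries alone and 9 with the small RNA share as a covariate, and the nuclear falls, 11 as reported, numbered 7 with upper-quartile scaling; the cause was not tested. Leaving out a library in turn gave 17 to 26 nuclear rises, 13 to 21 falls and 2 to 4 mitochondrial rises in rABS against Parental. In shAPE1 against shCtrl it gave 5 to 9 nuclear rises, 8 to 13 falls and 2 to 4 mitochondrial rises, and in shCtrl against rABS 0 to 3, 7 to 16 and, for mitochondrial falls, 2 to 4. No scaling moved the median of all genes by over 0.1 on the log2 scale. Same-numbered replicates deviated together only weakly (correlations from -0.161 to 0.06, and not every library correlated best with its own number), so the numbers do not pair the samples. A replicate block kept 41 of 44 member calls (APEX1 not among them) in rABS against Parental, 20 of 23 in shAPE1 against shCtrl and 17 of 18 in shCtrl against rABS, giving 22 nuclear rises and 17 falls, 7 and 11, and 3 and 12. Lost there were MT-CO2, CYC1 and ATP5MC3 in rABS against Parental (adjusted p = 0.0588, 0.0658 and 0.0596), MT-CO1, NDUFA4 and ATP5MC2 in shAPE1 against shCtrl (0.0612, 0.0687 and 0.0624) and MT-CO3 in shCtrl against rABS (0.0698). Depth limits the genes under 3 CPM, such as NDUFA4L2 and COX6B2.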
